A study of Homo sapiens with 20 samples.

Results

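The genes of polyamine metabolism described here are 8 of the 19593 genes counted in SLAM-seq libraries of MM1.S: ODC1, AMD1, SRM and SMS, which make polyamines; SAT1, which breaks them down; the antizymes OAZ1 and OAZ2; and the antizyme inhibitor AZIN1. They were chosen by name for their place in the pathway, with earlier results of these data known. Each stands as its most-read annotated transcript, with reads added up across the 20 libraries. MM1.S is an established multiple myeloma cell line, wild type in every library. Cells received 10 nM dCBP-30, a degrader that brings the acetyltransferases CBP and p300 to the ubiquitin ligase receptor cereblon, or the vehicle DMSO, for 2, 6 or 24 h, with 3 libraries for each treatment and time point and separate DMSO libraries at each time. All 18 of these were labelled with 4-thiouridine (4sU) for 1 h before harvest, and 2 libraries without 4sU gave the background. The sources do not say whether the 3 libraries of a group came from separate cultures, so the p-values measure only the spread between these libraries.

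Putrescine, spermidine and spermine are small positively charged molecules that bind nucleic acids, and growing cells need them. Ornithine decarboxylase (ODC1) makes putrescine, S-adenosylmethionine decarboxylase (AMD1) supplies the aminopropyl donor, spermidine synthase (SRM) makes spermidine from both, and spermine synthase (SMS) adds the next group. Antizymes, whose translation needs a ribosomal frameshift that polyamines favour, send ornithine decarboxylase to the proteasome, and ODC1 is a textbook target of the transcription factor MYC, whose dimer with MAX binds the E-box CACGTG.

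Sequences are shown for ODC1 and SRM, the members whose listed promoter windows hold that E-box. They were also the members whose reads fell most at 24 h in the comparisons that follow. This was known when they were chosen. AMD1, which also fell at 24 h, had no CACGTG in its listed windows. Whether the motif had a part in any decrease was not tested. RefSeq promoter windows (GRCh38.p14, 300 bases, of which 250 lie before and 50 after an annotated start) were listed for 7 of the 8 genes, in 10 windows. CACGTG, which reads the same on both strands, was found in windows of 2 of the 7 genes, against 8.77% of all 27305 symbols and 7.26% of all 35116 windows. A match is a description of the letters and not a bound site. The capitals mark CACGTG, and the other bases are its flanks on the gene's own strand, from chr2:10448002-10448071 (minus strand) for ODC1 and chr1:11060182-11060247 (minus strand) for SRM.
ODC1: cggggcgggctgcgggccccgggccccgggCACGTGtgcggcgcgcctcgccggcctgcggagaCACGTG
SRM: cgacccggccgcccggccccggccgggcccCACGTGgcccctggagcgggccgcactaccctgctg
In ODC1 the motifs began 29 bases before and 5 bases after one of its annotated starts, and the window of the other start (chr2:10448278-10448577) held none. The SRM motif began 199 bases before the start.

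After alkylation, sequencing reads 4sU as C instead of T. A read with such a conversion, called a T>C read, is taken to mark RNA made within the hour of labelling. Some T>C reads are background, and its part differed between genes. Pooled T>C reads were 0.65% of OAZ1 reads and 0.63% of SMS reads without 4sU, against 2.08% and 2.29% under DMSO at 2 h. For AMD1 they were 0.88% against 30.2%. The T>C levels given here are not corrected for background unless stated. Total reads are all reads of the transcript, and T>C reads are part of them, so the measures are not independent. The labelled share is the percentage of a gene's reads that were T>C reads. Levels of the members are given as RPM, reads per 1000000 reads of the library's scaled size, which is its total reads multiplied by a TMM scaling factor. A change is called here when edgeR's quasi-likelihood test across all genes gave an adjusted p under 0.05.

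Libraries held between 12439665 and 18727385 reads on genes. T>C reads were 6.08%, 6.38% and 8.31% of reads on average under DMSO at 2, 6 and 24 h and 5.54%, 4.98% and 6.38% under dCBP-30, against 0.794% and 0.809% without 4sU. At 24 h each T>C read carried on average 1.47 conversions under dCBP-30 and 2.48 under DMSO, whereas at 2 and 6 h the group means lay between 2.17 and 2.24. The part of this difference in the 24 h results was not tested. Levels of cell type markers were instead taken per 1000000 total reads, without the TMM factor, so they are not on the scale of the members' RPM. All 9 listed plasma cell markers were above 1 RPM in the DMSO libraries, where their summed level lay between 5329 and 6646 RPM. Under dCBP-30 it lay between 817 and 4898 RPM. Markers of B cells, monocytes and fibroblasts summed to under 1 RPM in every DMSO library. Of the T cell and erythroid lists, 1 gene each had a median above 1 RPM, with summed levels from 1.97 to 6.72 and from 4.24 to 9.91 RPM under DMSO and from 2.61 to 21.4 and from 0.989 to 6.35 RPM under dCBP-30. The part of these marker levels in the results was not tested.

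After 2 h of dCBP-30, T>C reads of none of the 8 genes were called in either direction, while 8.35% of the 10083 genes tested were called lower and 2.38% higher. By an unadjusted p under 0.05, edgeR found 0 members and DESeq2 found 1 higher, also not called after adjustment. At 6 h, ODC1, SRM, AMD1 and AZIN1 fell and OAZ2 rose, so that 4 of 8 were called lower and 1 higher, beside 21.3% and 3.02% of all genes. At 24 h, 3 of 8 were called lower, ODC1, SRM and AMD1, beside 37.0% of all genes, and none higher, beside 2.79%; by an unadjusted p under 0.05, 1 was higher, and DESeq2 with size factors from total reads called that gene, OAZ2. The median log2 fold change of the 8 genes was 0.17, -0.89 and -0.84 at 2, 6 and 24 h, and that of all genes was 0.04, -0.27 and -0.69. The size of the 24 h decreases depended on the scaling: by DESeq2 with size factors from T>C reads, which moved the median of all genes to 0.07, the log2 fold changes were -2.31 for ODC1, -2.48 for SRM and -0.65 for AMD1, all still called. In bulk RNA, fewer cells of a kind and less RNA per cell cannot be told apart.

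**Figure D1:**
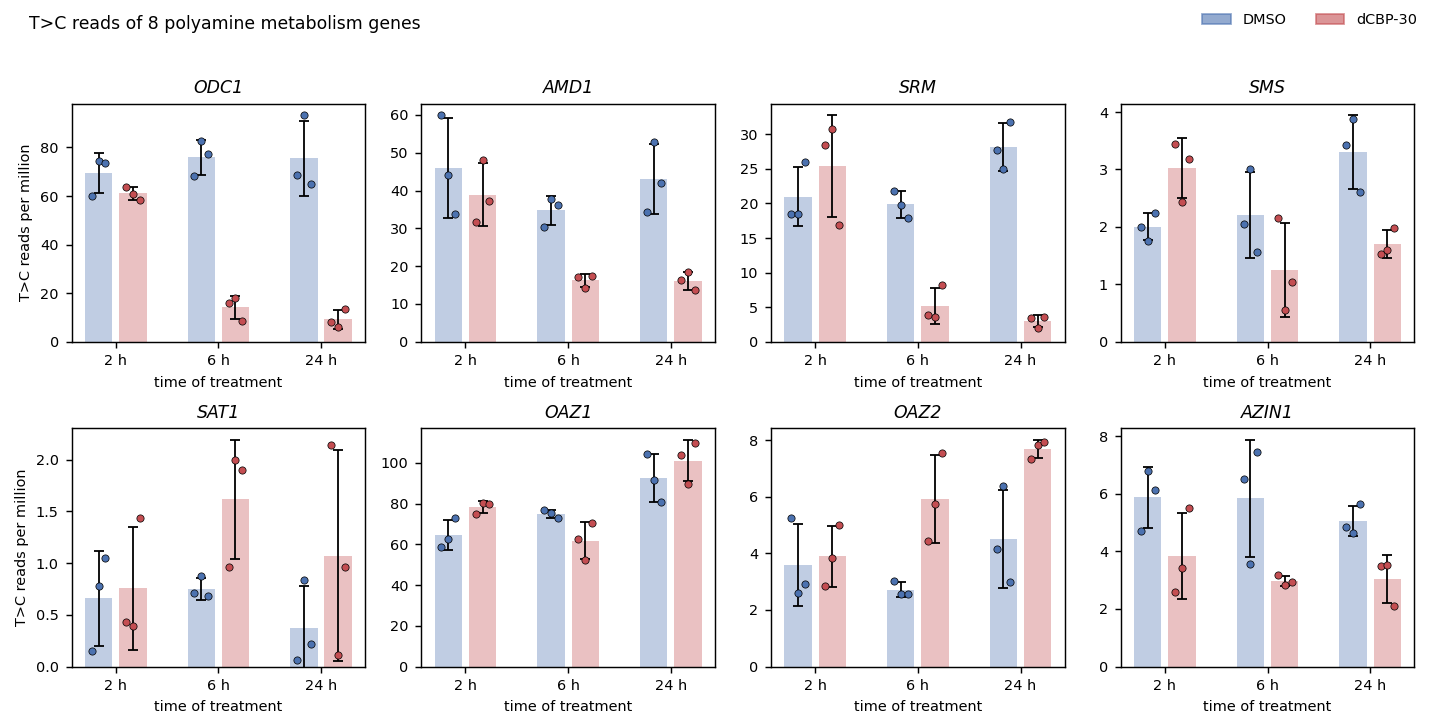
T>C reads (RPM) of each of the 8 genes (vertical axes, scaled per gene and starting at 0) by time of treatment, with a point per library, bars for the group mean and whiskers for the SD (n = 3). Under dCBP-30 the ODC1, SRM and AMD1 points at 6 and 24 h lie below all DMSO points of the same time, and the OAZ2 points lie above them.

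ODC1, the first and most tightly controlled step of polyamine synthesis, had no detectable change at 2 h and fell steeply from 6 h. Its T>C reads at 2 h were 60.1, 74.5 and 73.7 RPM under DMSO and 63.8, 61.0 and 58.4 RPM under dCBP-30. These ranges overlapped, and the log2 fold change was -0.19 ± 0.21 (SE; adjusted p = 0.68), with a 95% interval from -0.59 to 0.22. At 6 h the DMSO libraries held 68.3, 82.6 and 77.2 RPM and the dCBP-30 libraries 16.0, 17.8 and 8.58 RPM. Every treated library was far below every control, a 5.37-fold decrease (log2 -2.42 ± 0.22, adjusted p = 4.3e-12). At 24 h the values were 68.5, 93.4 and 64.9 RPM against 8.16, 5.89 and 13.6 RPM, again without overlap, an 8.18-fold decrease (log2 -3.03 ± 0.23, adjusted p = 1.2e-14).

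The total ODC1 reads fell too. At 6 h they were 905, 985 and 1001 RPM under DMSO and 451, 508 and 403 RPM under dCBP-30, 2.12-fold lower (log2 -1.09 ± 0.13, adjusted p = 2.9e-07). By 24 h the dCBP-30 libraries held 135, 107 and 167 RPM and the DMSO libraries 838, 909 and 751 RPM, 6.12-fold lower (log2 -2.61 ± 0.14, adjusted p = 3e-14). The groups did not overlap at either time, and the decrease in total reads was larger at 24 h than at 6 h by 1.53 ± 0.19 on the log2 scale (adjusted p = 4.3e-07), a comparison chosen after its values were seen. At 2 h the total log2 fold change was 0.10 ± 0.13 (adjusted p = 0.78).

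SRM, which makes spermidine, fell in newly made RNA by 6 h, at a time when its total reads did not pass the test. At 2 h its T>C reads were 18.4, 18.5 and 25.9 RPM under DMSO and 28.4, 30.8 and 17.0 RPM under dCBP-30, overlapping (log2 fold change 0.27 ± 0.23, adjusted p = 0.57). At 6 h they were 21.8, 19.8 and 17.96 RPM under DMSO against 3.83, 3.54 and 8.21 RPM, so that each treated library was below each control and the decrease was 3.83-fold (log2 -1.94 ± 0.25, adjusted p = 5e-09). The total reads at 6 h were 919, 866 and 779 RPM under DMSO and 654, 692 and 947 RPM under dCBP-30; these overlapped, with a log2 fold change of -0.16 ± 0.15 (adjusted p = 0.42) and a 95% interval from -0.45 to 0.13.

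At 24 h both measures of SRM were low. Its T>C reads were 27.8, 24.9 and 31.7 RPM under DMSO and 3.40, 2.04 and 3.65 RPM under dCBP-30, 9.27-fold lower (log2 -3.21 ± 0.26, adjusted p = 1.1e-15). Its total reads were 948, 734 and 816 RPM under DMSO and 118, 112 and 121 RPM under dCBP-30, 7.14-fold lower (log2 -2.83 ± 0.16, adjusted p = 1.7e-13). No library of one group reached the other in either measure. The total log2 fold change was lower at 24 h than at 6 h by -2.67 ± 0.22 (adjusted p = 5.3e-10), also chosen after its values were seen.

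AMD1, whose enzyme decarboxylates S-adenosylmethionine, fell in T>C and in total reads at 6 and 24 h. T>C reads at 6 h were 30.5, 37.8 and 36.1 RPM under DMSO and 17.1, 14.3 and 17.3 RPM under dCBP-30, 2.14-fold lower (log2 -1.10 ± 0.19, adjusted p = 6e-06). At 24 h they were 34.4, 52.8 and 41.9 RPM against 16.3, 18.4 and 13.7 RPM, 2.66-fold lower (log2 -1.41 ± 0.19, adjusted p = 1.2e-08). The groups were separate at both times, but the controls themselves ranged from 33.9 to 60.0 RPM at 2 h, where the log2 fold change was -0.24 ± 0.19 (adjusted p = 0.52). Total reads were 112, 115 and 124 RPM under DMSO and 71.0, 51.0 and 43.6 RPM under dCBP-30 at 6 h, 2.12-fold lower (log2 -1.09 ± 0.16, adjusted p = 7e-06). At 24 h they were 95.6, 135 and 133 RPM against 57.8, 72.02 and 58.7 RPM, 1.93-fold lower (log2 -0.95 ± 0.16, adjusted p = 1.7e-05). For AMD1, 6.59 alignments per 100 reads were flagged as multimapping in the deposited counts, the most among the 8 genes.

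SMS, which makes spermine, rested on fewer T>C reads, from 10 to 65 per labelled library. Its T>C reads were 2.05, 3.02 and 1.56 RPM under DMSO and 2.15, 0.554 and 1.04 RPM under dCBP-30 at 6 h, and 3.43, 3.88 and 2.61 RPM against 1.53, 1.60 and 1.99 RPM at 24 h. The groups overlapped at 6 h and not at 24 h, and neither log2 fold change passed the test: -0.82 ± 0.50 (adjusted p = 0.26) and -0.95 ± 0.49 (adjusted p = 0.12). The total SMS reads stayed between 67.3 and 99.5 RPM in all 18 labelled libraries, with log2 fold changes of 0.01 ± 0.12, -0.25 ± 0.12 and -0.17 ± 0.12 at 2, 6 and 24 h (adjusted p = 0.97, 0.092 and 0.21). The 24 h interval of the total, from -0.40 to 0.06, lay far from the decreases of ODC1 and SRM.

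SAT1, spermidine/spermine N1-acetyltransferase, which starts polyamine breakdown and export, was the least covered member, with 3621 reads over the 20 libraries and 1 to 39 T>C reads per labelled library. Its total reads at 24 h were 4.66, 12.2 and 10.1 RPM under DMSO and 18.4, 16.2 and 13.5 RPM under dCBP-30, 1.78-fold higher (log2 0.83 ± 0.29, adjusted p = 0.017). The groups did not overlap, but the call was lost without DMSO replicate 1 (log2 0.51, adjusted p = 0.12), the lowest control, and without dCBP-30 replicate 1 (log2 0.72, adjusted p = 0.065). At 6 h the totals were 6.57, 11.3 and 9.89 RPM against 16.3, 17.6 and 10.4 RPM, which overlapped (log2 0.68 ± 0.29, adjusted p = 0.065; called by DESeq2, 0.70, adjusted p = 0.048). T>C reads at 24 h were 0.0648, 0.835 and 0.217 RPM under DMSO and 2.14, 0.110 and 0.966 RPM under dCBP-30, so that one treated library lay among the controls. The T>C log2 fold changes of 1.10 ± 0.88 at 6 h and 1.48 ± 0.92 at 24 h did not pass the test (adjusted p = 0.42 and 0.21), while DESeq2 with size factors from T>C reads called the latter (2.22, adjusted p = 0.042).

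OAZ1 and OAZ2 encode antizymes, and OAZ2 rose. Its T>C reads at 6 h were 3.04, 2.55 and 2.58 RPM under DMSO and 4.43, 5.76 and 7.54 RPM under dCBP-30, all treated libraries above all controls and 2.17-fold higher (log2 1.12 ± 0.36, adjusted p = 0.015). The OAZ2 call was lost when any of 3 libraries at 6 h was left out: DMSO replicate 2 (log2 1.07, adjusted p = 0.053), DMSO replicate 3 (1.08, adjusted p = 0.051) or dCBP-30 replicate 3 (0.90, adjusted p = 0.092). At 24 h OAZ2 was at 4.15, 6.38 and 2.97 RPM against 7.34, 7.81 and 7.94 RPM, without overlap, and the log2 fold change of 0.77 ± 0.34 did not pass (adjusted p = 0.068); without DMSO replicate 2 it was 1.11 and did (adjusted p = 0.025), as it did relative to T>C reads (1.43, adjusted p = 0.00071). The total OAZ2 reads also rose. They were 107, 96.1 and 95.97 RPM under DMSO and 156, 156 and 169 RPM under dCBP-30 at 6 h, 1.61-fold higher (log2 0.69 ± 0.10, adjusted p = 8.5e-06), and 118, 117 and 126 RPM against 197, 193 and 186 RPM at 24 h, 1.59-fold higher (log2 0.67 ± 0.10, adjusted p = 4.6e-06).

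OAZ1, the widely expressed antizyme, was not called at any time in T>C or total reads, but at 24 h this depended on the scaling. Its T>C reads were 58.9, 62.4 and 72.9 RPM under DMSO and 75.1, 80.2 and 79.6 RPM under dCBP-30 at 2 h, 76.7, 75.3 and 72.8 RPM against 62.7, 52.3 and 70.6 RPM at 6 h, and 105, 91.8 and 80.9 RPM against 104, 89.7 and 110 RPM at 24 h. The treated libraries were thus all above the controls at 2 h, all below them at 6 h and mixed with them at 24 h, and the log2 fold changes of 0.27, -0.28 and 0.13 (SE 0.15 each) did not pass the test (adjusted p = 0.27, 0.18 and 0.52). Its direction at 6 h depended on the scaling: relative to T>C reads in place of total reads it was 0.03. At 24 h its T>C reads were called higher relative to T>C reads (log2 0.78, adjusted p = 5.4e-06), by total reads without TMM (0.65, adjusted p = 0.00039) and by DESeq2 with size factors from T>C reads (0.87, adjusted p = 1.2e-12). Total OAZ1 reads lay between 3568 and 3772 RPM under DMSO and between 3974 and 4321 RPM under dCBP-30 at 24 h, without overlap, with a log2 fold change of 0.21 ± 0.09 that did not pass (adjusted p = 0.060) and that was called by DESeq2 (0.22, adjusted p = 0.030) and without TMM (0.73, adjusted p = 5.6e-07). A second annotated protein-coding gene on the same strand overlaps the OAZ1 region, so some of these reads could be shared.

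AZIN1 binds antizyme in place of ornithine decarboxylase and so protects the enzyme. Its T>C reads at 6 h were 6.50, 3.55 and 7.46 RPM under DMSO and 3.17, 2.82 and 2.94 RPM under dCBP-30, 1.96-fold lower (log2 -0.97 ± 0.36, adjusted p = 0.038). The groups did not overlap, though DMSO replicate 2 was close to the treated libraries, and the AZIN1 call was lost when any of 5 libraries at 6 h was left out: DMSO replicates 1 and 3 (log2 -0.88 and -0.75, adjusted p = 0.11 and 0.20) and dCBP-30 replicates 1, 2 and 3 (-1.02, -0.93 and -0.96, adjusted p = 0.070, 0.10 and 0.083). It was also lost relative to T>C reads (-0.65, adjusted p = 0.21), by total reads without TMM (-0.65, adjusted p = 0.21), by DESeq2 with size factors from T>C reads (-0.59, adjusted p = 0.23), with no filter on low counts (-0.97, adjusted p = 0.053) and with the background subtracted (-1.03, adjusted p = 0.062). At 24 h the values were 4.86, 4.65 and 5.65 RPM against 3.51, 3.52 and 2.09 RPM, separate but not called (log2 -0.73 ± 0.36, adjusted p = 0.098). Total AZIN1 reads were 50.9, 48.5 and 52.2 RPM under DMSO and 38.3, 31.8 and 29.9 RPM under dCBP-30 at 6 h, 1.51-fold lower (log2 -0.60 ± 0.15, adjusted p = 0.0022), which was lost without TMM (-0.28, adjusted p = 0.11). By 24 h they overlapped, at 34.5, 37.4 and 47.3 RPM against 33.5, 35.1 and 35.7 RPM (log2 -0.19 ± 0.15, adjusted p = 0.27).

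Over the 8 genes, total reads gave no call at 2 h, where 2.69% of the 12267 genes tested were called lower and 1.53% higher, and no member had an unadjusted p under 0.05 by edgeR or DESeq2. At 6 h, 3 members were lower and 1 higher, beside 21.5% and 18.8% of all genes. At 24 h, 3 were lower and 2 higher, beside 29.8% and 28.7% of all genes, and DESeq2 called 3 higher. The median total log2 fold change of the members was -0.04, -0.20 and -0.18 at 2, 6 and 24 h, while that of all genes was -0.003, 0.02 and 0.05.

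**Figure D2:**
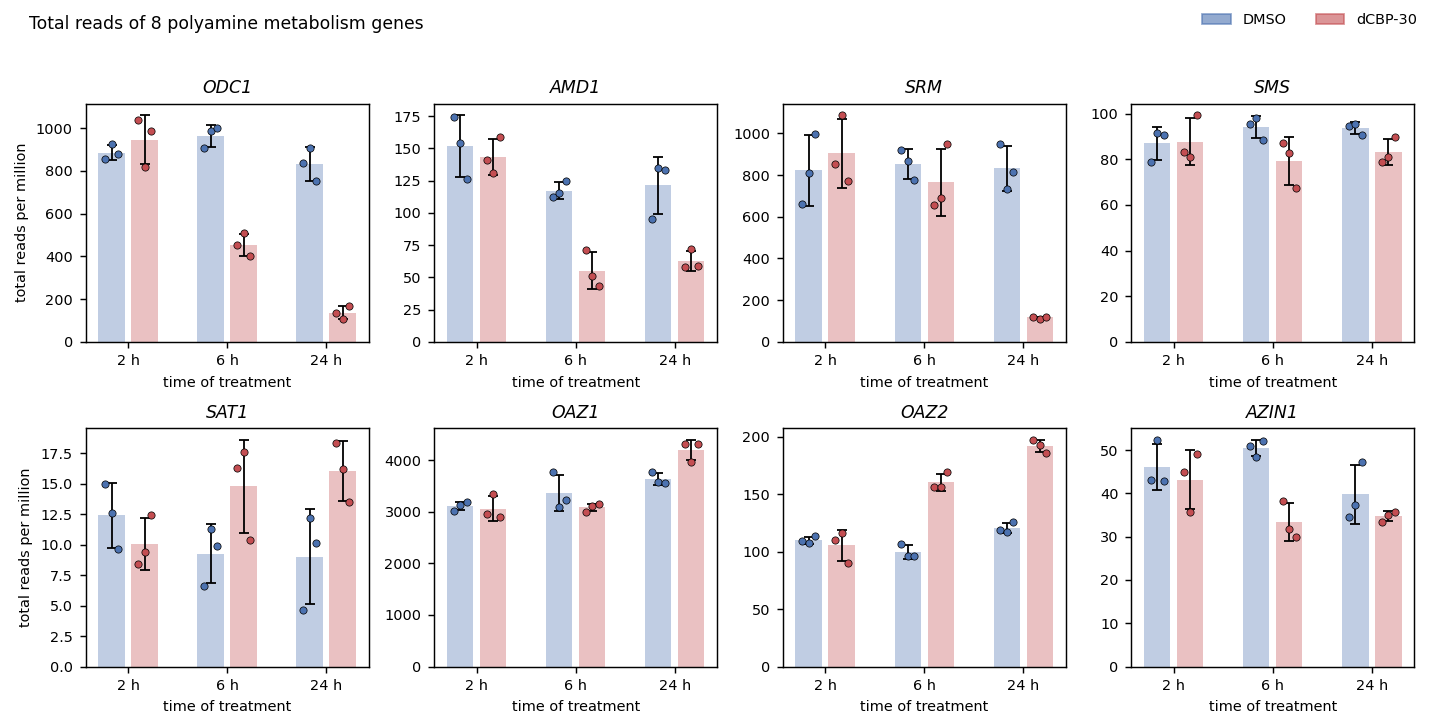
Total reads (RPM) of each of the 8 genes (vertical axes, scaled per gene and starting at 0) by time of treatment, with a point per library, bars for the group mean and whiskers for the SD (n = 3). SRM under dCBP-30 overlaps DMSO at 6 h and lies at 112 to 121 RPM at 24 h, while ODC1 is already at 403 to 508 RPM at 6 h.

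In the labelled share, ODC1 and SRM were the only members called at 6 h, in the same libraries in which their T>C reads fell. No test compared the members with each other, and the log2 odds ratios of SAT1 and SMS were imprecise (SE 0.82 and 0.36). ODC1 had a share of 7.54%, 8.38% and 7.71% under DMSO and 3.54%, 3.51% and 2.13% under dCBP-30, with a log2 odds ratio of -1.46 ± 0.18 (adjusted p = 9.3e-06). SRM had 2.38%, 2.28% and 2.31% under DMSO and 0.585%, 0.512% and 0.867% under dCBP-30, with a log2 odds ratio of -1.86 ± 0.20 (adjusted p = 8.3e-07). Both genes were lower in every treated library, and the treated SRM values lay nearer to those without 4sU, 0.325% and 0.204%, than to the controls. Of the 8 genes 2 were called lower and none higher at 6 h (by edgeR and by limma alike, and 0 higher by an unadjusted p), beside 6.86% and 0.208% of all genes.

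At 2 h no member was called in its labelled share, beside 5.13% of all genes lower and 1.0% higher; by an unadjusted p under 0.05, 1 was higher, OAZ1, at 2.54%, 2.40% and 2.75% under dCBP-30 against 1.95%, 2.00% and 2.29% under DMSO. The log2 odds ratio of OAZ1 was 0.31 ± 0.11 (adjusted p = 0.13). At 24 h again no member was called, beside 25.6% of all genes lower and 0.208% higher, with 3 lower by an unadjusted p under 0.05 and none called by limma. Among them ODC1 went from 8.18%, 10.3% and 8.64% under DMSO to 6.06%, 5.52% and 8.16% (log2 odds ratio -0.49 ± 0.19, adjusted p = 0.053), and without dCBP-30 24 h replicate 3 its ratio was -0.68 (adjusted p = 0.017). SRM was at 2.93%, 3.39% and 3.89% against 2.88%, 1.82% and 3.03%, overlapping (-0.41 ± 0.21, adjusted p = 0.14). The median log2 odds ratio of all genes was -0.79 at 24 h, and that of the members was -0.45. The SRM ratio was higher at 24 h than at 6 h by 1.45 ± 0.29 (adjusted p = 0.0064), a comparison chosen after its values were seen, and this was lost with reads summed over transcripts (1.41, adjusted p = 0.051). Where the regions of a gene's transcripts overlap, such sums can count the same read more than once. Limma on the log2 odds called no member in this comparison of 24 with 6 h, neither SRM nor ODC1. By the percentage of covered T positions that were converted, SRM at 24 h lay between 0.104% and 0.202% under dCBP-30 and between 0.265% and 0.378% under DMSO, without overlap, and its T>C reads carried on average 1.20 conversions against 1.88. The ODC1 ratio was also higher at 24 h than at 6 h, by 0.96 ± 0.26 (adjusted p = 0.046). That call was lost with summed transcripts (1.07, adjusted p = 0.056) and with the replicate number as a block (0.97, adjusted p = 0.054). It was also lost on leaving out most of the single libraries, all but DMSO replicate 1 and dCBP-30 replicate 2 at 2 h, dCBP-30 replicates 1 and 2 at 6 h and dCBP-30 replicate 2 at 24 h, with values from 0.73 to 1.09 over all libraries left out.

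**Figure D3:**
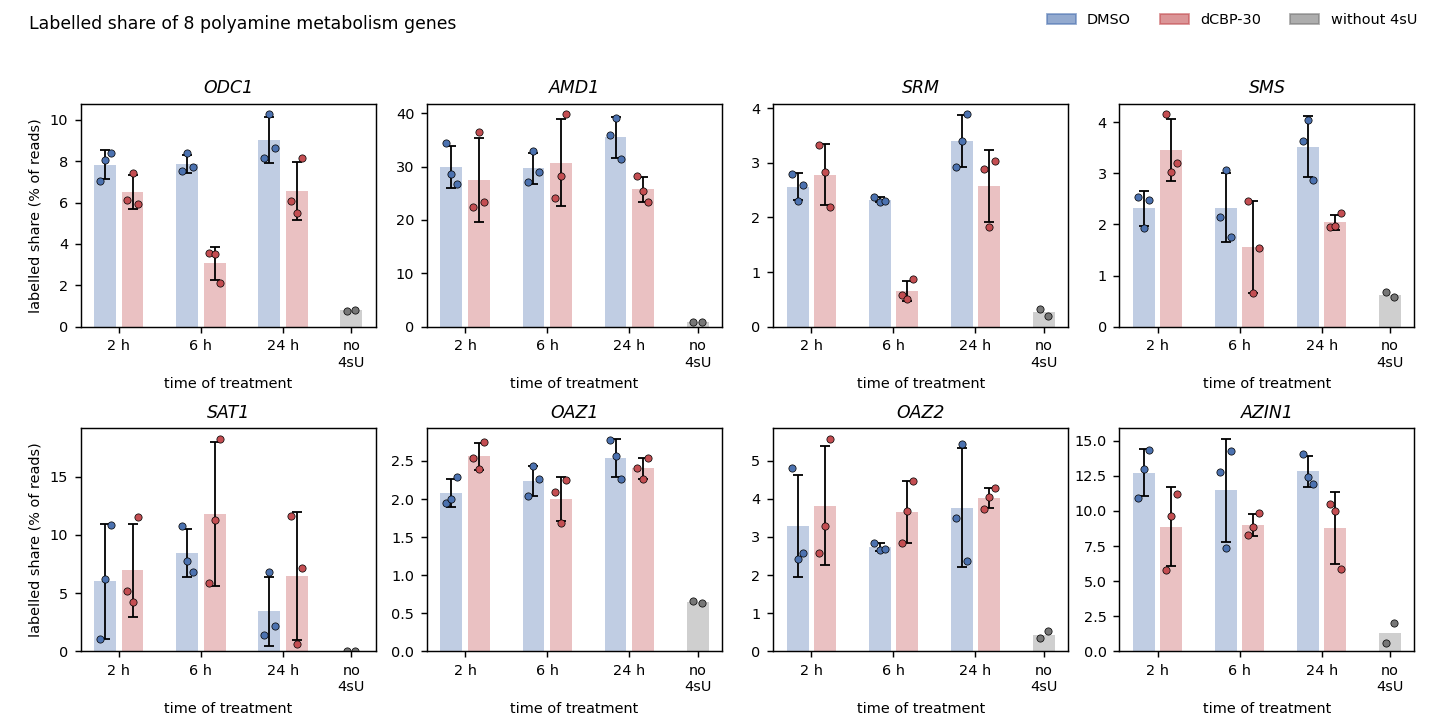
Labelled share, the percentage of a gene's reads that were T>C reads (vertical axes, scaled per gene and starting at 0), by time of treatment and in the libraries without 4sU, with a point per library, bars for the mean and whiskers for the SD (n = 3; the libraries without 4sU, n = 2, have no whiskers). SRM at 6 h under dCBP-30 lies between 0.512% and 0.867%, and AMD1 lies above 20% in all 18 labelled libraries.

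The labelled share of AMD1 was not called at any time. At 6 h it was 27.2%, 32.8% and 29.0% under DMSO and 24.1%, 28.2% and 39.8% under dCBP-30, which overlapped (log2 odds ratio 0.04 ± 0.29, adjusted p = 0.96, 95% interval from -0.53 to 0.61). At 24 h it was 36.0%, 39.0% and 31.4% against 28.2%, 25.5% and 23.4%, separate but not called (-0.67 ± 0.29, adjusted p = 0.086). Shares of different genes depend on how many T positions their reads cover, so genes were compared by the percentage of covered T positions that were converted. Under DMSO at 2 h that was 2.83% for AMD1, at percentile 90.7 of the 10083 genes, where the median gene had 0.816%. AZIN1 had 1.12%, at percentile 62.4, ODC1 0.674%, at percentile 42.7, and SAT1 0.579%, at percentile 36.4. SMS, OAZ2, SRM and OAZ1 were in the lowest part, with 0.244%, 0.229%, 0.223% and 0.183%, at percentiles from 7.74 to 12.5. In the DMSO libraries at 24 h AMD1 stood at percentile 86.6 and OAZ1 at percentile 3.59. These percentages pool the 3 libraries of a group and are descriptions.

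**Figure D4:**
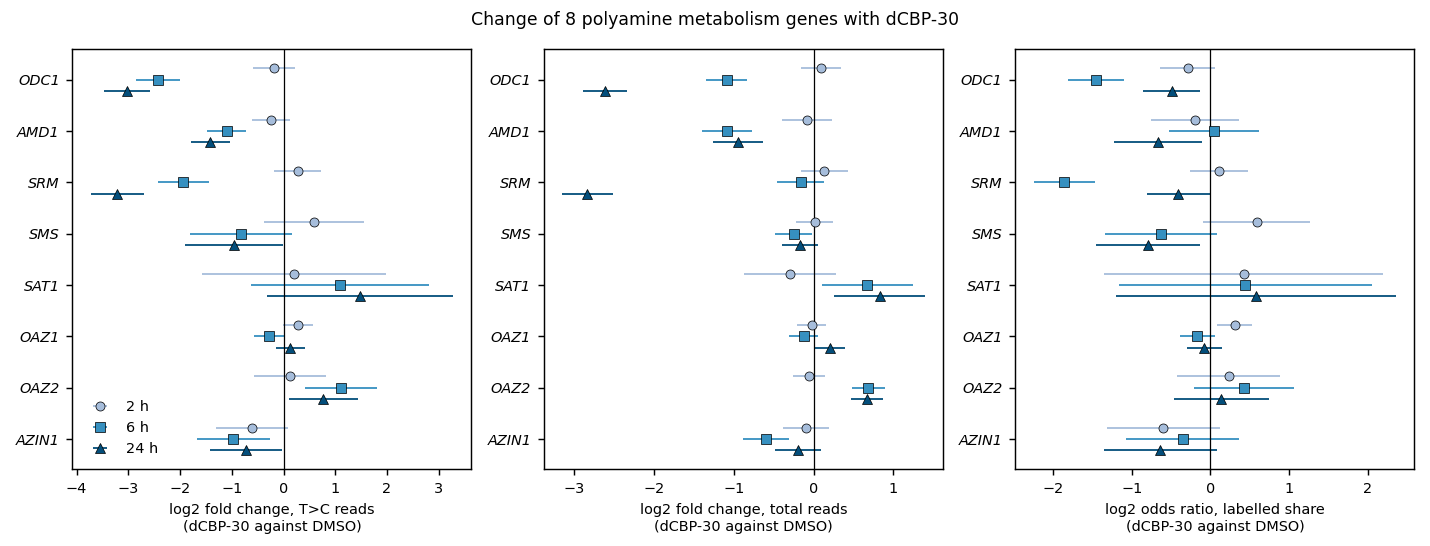
Log2 fold change of T>C reads and of total reads and log2 odds ratio of the labelled share (horizontal axes) with dCBP-30 against DMSO for the 8 genes, at 2, 6 and 24 h, with 95% intervals as whiskers. ODC1 and SRM reach -3.03 and -3.21 in T>C reads at 24 h, and the SRM total at 6 h, -0.16, has an interval that includes 0.

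The T>C changes were then compared between time points. Relative to 2 h, the change at 6 h was lower for ODC1 by -2.24 ± 0.30 (adjusted p = 6.3e-07), for SRM by -2.21 ± 0.34 (adjusted p = 3.6e-06) and for AMD1 by -0.86 ± 0.27 (adjusted p = 0.033), so 3 of 8 were called lower beside 7.32% of all genes. The AMD1 call was lost without any of 6 libraries, DMSO replicates 2 and 3 or dCBP-30 replicate 2 at 2 h (log2 -0.83, -0.68 and -0.68, adjusted p = 0.077, 0.14 and 0.15) and DMSO replicates 2 and 3 or dCBP-30 replicate 2 at 6 h (-0.80, -0.83 and -0.78, adjusted p = 0.083, 0.072 and 0.094). It was also lost with reads summed over transcripts (-0.93, adjusted p = 0.10), relative to T>C reads (-0.56, adjusted p = 0.28) and without TMM (-0.65, adjusted p = 0.18). Relative to 2 h, the change at 24 h was lower for the same 3 genes, by -2.85 ± 0.30 for ODC1, -3.49 ± 0.35 for SRM and -1.17 ± 0.27 for AMD1 (adjusted p = 7.2e-10, 6.8e-12 and 0.00053), beside 22.8% of all genes. Relative to T>C reads the AMD1 call at 24 against 2 h was lost (-0.52, adjusted p = 0.19). These contrasts share the 2 h libraries. Between 6 and 24 h, 1 of 8 was called lower beside 9.12% of all genes: SRM, by -1.28 ± 0.35 (adjusted p = 0.0097), a call lost without dCBP-30 6 h replicate 3 (-0.79, adjusted p = 0.14), with reads summed over transcripts (-1.37, adjusted p = 0.085) and relative to T>C reads (-0.93, adjusted p = 0.072). For ODC1 it was -0.61 ± 0.30 (adjusted p = 0.21), and it was called without dCBP-30 6 h replicate 3 (-0.87, adjusted p = 0.022) or dCBP-30 24 h replicate 3 (-1.003, adjusted p = 0.0078).

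Under DMSO alone, no member was called between 2 and 6 h. Between 2 and 24 h, OAZ1 was called higher in T>C reads (log2 0.51 ± 0.15, adjusted p = 0.028), beside 5.34% of all genes, while the median of all genes was 0.49. That OAZ1 call was lost without DMSO 2 h replicate 1 or 2 (log2 0.45 and 0.49, adjusted p = 0.14 and 0.10) and without DMSO 24 h replicate 1 or 2 (0.42 and 0.52, adjusted p = 0.16 and 0.068). ODC1, SRM and AMD1 had log2 differences of 0.12 ± 0.21, 0.42 ± 0.23 and -0.10 ± 0.19 under DMSO between 2 and 24 h, and none passed the test.

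A list of 25 other genes around the pathway covered the supply of arginine and methionine, methionine salvage, polyamine breakdown, further antizyme family members, hypusination and transport. In T>C reads 18 of them were tested: 2 fell and 1 rose at 2 h, 6 fell and 0 rose at 6 h, and 10 fell while 2 rose at 24 h, where 8.35%, 21.3% and 37.0% of all genes were called lower and 2.38%, 3.02% and 2.79% higher. In total reads 23 were tested, with 0, 6 and 8 lower and 1, 7 and 6 higher at 2, 6 and 24 h, beside 2.69%, 21.5% and 29.8% of all genes lower and 1.53%, 18.8% and 28.7% higher. The median T>C log2 fold change of the tested genes was -0.01, -0.65 and -1.03, below that of all genes at each time.

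The decreases included genes on both sides of the synthesis enzymes. AGMAT, a member of the agmatinase family, fell at every time in T>C reads, with log2 fold changes of -1.15 ± 0.32, -3.12 ± 0.36 and -4.79 ± 0.39 (adjusted p = 0.0091, 1.3e-10 and 1.2e-15). EIF5A, the translation factor that carries hypusine, a residue made from spermidine, fell at every time too, by -1.14 ± 0.24, -2.33 ± 0.25 and -2.28 ± 0.25 (adjusted p = 0.00033, 2.8e-11 and 2.2e-11). MAT2A, which makes S-adenosylmethionine, rose in total reads at 2 h (0.44 ± 0.13, adjusted p = 0.049) and fell in T>C reads at 6 and 24 h (-1.39 ± 0.17 and -2.33 ± 0.18, adjusted p = 1e-09 and 4e-17). DOHH, a hypusination enzyme, and MTAP, of methionine salvage, fell in T>C reads at 24 h (-1.59 ± 0.39 and -2.05 ± 0.66, adjusted p = 0.00063 and 0.010).

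SLC3A2, the heavy chain of several amino acid transporters, fell in T>C reads at 6 and 24 h (-1.26 ± 0.16 and -1.76 ± 0.16, adjusted p = 1.9e-09 and 5.1e-14), and ATP13A3, a polyamine transporter, fell at both times (-0.88 ± 0.31 and -1.62 ± 0.31, adjusted p = 0.026 and 1.8e-05). Genes that rose in total reads at 24 h included SAT2 (1.77 ± 0.15, adjusted p = 1.9e-10), a relative of SAT1, EIF5A2, the second EIF5A gene (2.54 ± 0.28, adjusted p = 2.8e-08), and SLC18B1, a vesicular polyamine transporter (2.01 ± 0.31, adjusted p = 4.9e-06). The polyamine oxidases PAOX and SMOX did not pass the test at any time in either measure, with total log2 fold changes at 24 h of 0.23 ± 0.16 and 0.15 ± 0.28.

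**Figure D5:**
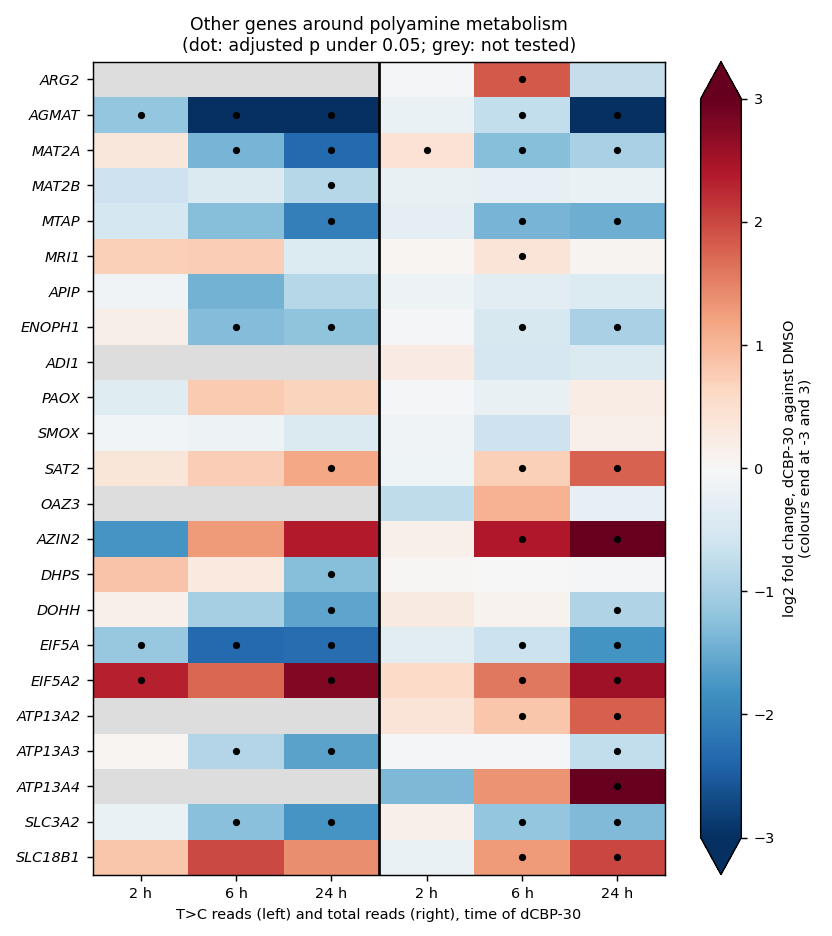
Log2 fold change with dCBP-30 against DMSO of the other pathway genes tested in total reads (rows) in T>C reads (left columns) and total reads (right columns) at 2, 6 and 24 h; dots mark an adjusted p under 0.05, grey marks genes not tested, and colours end at -3 and 3. AGMAT and EIF5A are lower in T>C reads at every time, and EIF5A2 and SAT2 are higher in total reads at 6 and 24 h.

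For each member the genes nearest in pattern were found by the root mean square difference over 6 log2 fold changes, those of T>C and total reads at 2, 6 and 24 h. Candidates were the 7537 genes outside the members and the pathway list with an average of at least 20 T>C reads per labelled library. ODC1 was nearest to NOLC1 (difference 0.13), LDHA (0.19) and SRPRB (0.20), and NOLC1 had T>C log2 fold changes of -0.20, -2.42 and -2.79. SRM was nearest to FKBP11 (0.25), TOMM40 (0.26) and ENSG00000272822 (0.26). ENSG00000272822 had T>C log2 fold changes of 0.35, -1.76 and -2.67, close to the 0.36, -1.75 and -2.71 of FKBP11. Whether these annotations count the same reads was not tested. The FKBP11 total was -0.23 at 6 h and -2.55 at 24 h. These totals were among the values used to find the nearest genes, so their likeness to SRM is no separate result. AMD1 was nearest to HNRNPDL (0.17), RPS27A (0.18) and PDXK (0.19). For the members that rose, OAZ2 was nearest to RB1CC1 (0.08) and SAT1 to POLB (0.19), while SMS was nearest to GBE1 (0.12), OAZ1 to TRAPPC3 (0.09) and AZIN1 to ORMDL3 (0.09).

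The counted regions are annotated 3′ untranslated regions (hg38, GENCODE 44). Those of SRM (chromosome 1, 11054589 to 11054864, minus strand), SMS (chromosome X, 21994352 to 21994837, plus strand) and OAZ2 (chromosome 15, 64687573 to 64688703, minus strand) were single blocks of protein-coding transcripts, with 276, 486 and 1131 bases. For the other 5 members the transcript with the most reads was a nonsense-mediated-decay annotation, whose region also holds exons that code in the main transcript: ODC1 (chromosome 2, 10439968 to 10444517, minus strand, 9 blocks), AMD1 (chromosome 6, 110892198 to 110895713, plus strand, 5 blocks), SAT1 (chromosome X, 23784308 to 23786210, plus strand, 4 blocks), OAZ1 (chromosome 19, 2271795 to 2273488, plus strand, 3 blocks) and AZIN1 (chromosome 8, 102826368 to 102836525, minus strand, 6 blocks). The most-read protein-coding transcript held 96.3%, 62.6%, 98.7%, 94.3% and 98.8% as many reads, in that order.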

How the data were processed

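SLAM-seq libraries of MM1.S were analysed, 18 labelled with 4sU and 2 without. Per the labels and the study's methods, the authors trimmed the 3′-end reads with Trim Galore, ran Slamdunk on 3′ untranslated regions of hg38, removed multimapping reads and collapsed per transcript. They deposited raw counts per transcript, not normalized: all reads, reads with a conversion, conversions, and T positions covered. A Drosophila spike-in is not used here, and whether counting used strand is not given in the sources used here.

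Of 97466 transcript rows, 91.4% matched GENCODE 44 by identifier. Each gene took its transcript with the most reads. Groups came from the labels. edgeR 4.0.16 (R 4.3.3, quasi-likelihood, robust) was fitted to all 18 labelled libraries, with total reads and TMM as library sizes, filterByExpr (minimum count 10) and Benjamini-Hochberg adjustment. The labelled share was fitted as T>C against other reads with library terms. Intervals are 95%, taken as 1.96 standard errors to each side. They are narrower than the test allows and can exclude 0 where the test did not pass. For SMS T>C reads at 24 h the interval was -1.91 to -0.0013 (unadjusted p = 0.054 by edgeR). Libraries of a group were not copies (chi-square per degree of freedom 8.54 to 50.1). Scripts were tested on simulated data. The members and lists were chosen with earlier results of these data known. The genes named are the members, the pathway list and, per member, the 3 nearest in pattern. Alternatives used DESeq2 1.42.0, limma 3.58.1, other scalings, filters and thresholds, summed transcripts, a replicate block and each library left out. Regions of a gene's transcripts overlap, as in ODC1 and SRM, so summed transcripts can count the same read more than once. The most-read protein-coding transcript was added after seeing the data.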

Additional observations from a re-analysis of the deposited data

Results flagged for a closer look

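The change in T>C reads with dCBP-30 differed between time points for ODC1, SRM and AMD1 by a test of the difference itself. The difference of the log2 fold changes at 6 and 2 h was -2.24 for ODC1, -2.21 for SRM and -0.86 for AMD1 (adjusted p = 6.3e-07, 3.6e-06 and 0.033), that at 24 and 2 h was -2.85, -3.49 and -1.17 (adjusted p = 7.2e-10, 6.8e-12 and 0.00053), and that at 24 and 6 h was -1.28 for SRM (adjusted p = 0.0097). The AMD1 difference at 6 and 2 h was lost without any of 6 libraries, with reads summed over transcripts (-0.93, adjusted p = 0.10), relative to T>C reads (-0.56, adjusted p = 0.28) and without TMM (-0.65, adjusted p = 0.18), and the AMD1 difference at 24 and 2 h was lost relative to T>C reads (-0.52, adjusted p = 0.19). The SRM difference at 24 and 6 h was lost with summed transcripts (-1.37, adjusted p = 0.085), relative to T>C reads (-0.93, adjusted p = 0.072) and without dCBP-30 6 h replicate 3 (-0.79, adjusted p = 0.14).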

How the results depend on the processing

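Leaving out each library kept the counts at 3 members lower at 24 h and between 3 and 4 at 6 h in T>C reads, 3 at both times in total reads, 2 at 6 h in the labelled share, and 3 for 24 against 2 h. It moved the members higher in T>C reads to between 0 and 1 at 6 and at 24 h, those higher in total reads to between 1 and 2 at 6 and at 24 h, those lower in labelled share at 24 h to between 0 and 1, those lower between 6 and 24 h to between 1 and 2, and the OAZ1 rise under DMSO to between 0 and 1. Scaled by T>C reads, 2 members were higher in T>C reads at 24 h, 0 were lower and 1 higher between 6 and 24 h, and 0 were higher under DMSO. By total reads without TMM, which moved the median log2 fold change of all genes in total reads to 0.10, 0.35 and 0.58 at 2, 6 and 24 h, 2 were higher in T>C reads at 24 h, 1 between 6 and 24 h, and 2 and 5 in total reads at 6 and 24 h. DESeq2 with size factors from total reads called 1 higher in T>C reads at 24 h and 2 in total reads at 6 h, and with size factors from T>C reads 3. With summed transcripts 0 were called between 6 and 24 h and 0 under DMSO. With no filter 2 were higher in total reads at 6 h, and an adjusted p under 0.1 gave 2 there and 1 in T>C reads at 24 h. With the protein-coding transcript, or each time point alone, 1 was lower in labelled share at 24 h. The share of all genes called under each of these settings is not given here, so these counts cannot be set against all genes.

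Values that changed sign were not called in the main setting. These were AZIN1 T>C reads at 24 h (0.033, DESeq2 with T>C size factors), OAZ1 T>C reads at 6 h (0.032 scaled by T>C reads, 0.042 without TMM, 0.094 with DESeq2 and T>C size factors) and the AMD1 share at 6 h (-0.081 summed, -0.14 protein-coding transcript). In total reads without TMM they were OAZ1, AMD1, AZIN1 and OAZ2 at 2 h (0.085, 0.026, 0.013 and 0.047), SMS, OAZ1 and SRM at 6 h (0.066, 0.19 and 0.16), and SMS and AZIN1 at 24 h (0.35 and 0.33, now called; adjusted p = 0.012 and 0.046). The cause was not tested beyond the shift of the median. Leaving out a library spanned 0 for SAT1 and OAZ2 T>C reads at 2 h (-0.66 to 0.69 and -0.097 to 0.50), for the share of SRM, SAT1 and OAZ2 at 2 h (-0.030 to 0.27, -0.29 to 1.13 and -0.11 to 0.59), of SAT1 and OAZ2 at 24 h (-0.23 to 1.52 and -0.14 to 0.48) and of AMD1 at 6 h (-0.26 to 0.27), and for total SMS, OAZ1, SRM, AMD1, AZIN1 and OAZ2 at 2 h (-0.084 to 0.071, -0.088 to 0.020, -0.016 to 0.30, -0.20 to 0.032, -0.20 to 0.030 and -0.14 to 0.045).

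Replicate numbers showed no pairing of the libraries. Each gene's group mean was subtracted from its log2 T>C level. These deviations correlated from -0.058 to 0.017 between same-numbered DMSO and dCBP-30 libraries of a time point, in 9 pairs. With the replicate number as a block, T>C counts were the same as without it, with 4 lower at 6 h and 3 at 24 h, and of the calls given here it ended that of the ODC1 share between 6 and 24 h (0.97, adjusted p = 0.054) and no other. Depth limits the T>C comparisons of SAT1 and SMS, which rest on 1 to 39 and 10 to 65 T>C reads per labelled library.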
